A study of Drosophila melanogaster with 2 samples.

Results

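Small nucleolar RNA (snoRNA) genes and the host genes that carry them were examined for peaks of an amos-eGFP fusion protein. The members were all genes whose symbol in the Ensembl BDGP6 annotation starts with "snoRNA:" on the 6 main chromosome arms, which gave 257 of 18164 genes. Of these, 236 lay whole inside another gene on the same strand, here called the host, and 21 did not. The hosts numbered 82, with 72 protein-coding genes holding 181 snoRNAs and 10 non-coding genes holding 55. The data were ChIP-seq peak lists from whole Drosophila melanogaster embryos of the strain amos-GFP, aged 0 to 18 hours, in which a transgenic amos-eGFP fusion was immunoprecipitated with anti-GFP after sonication to 200 to 800 bp. The antibody label itself reads amos, and what drives the transgene is not given in the sources used here. Both libraries, biological replicates 1 and 2, belong to 1 group, and no control library was analysed here. A peak from whole embryos averages over all their cells, so a site bound in a few cells and a site bound weakly in many cannot be told apart.

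snoRNAs guide chemical changes of other RNAs in the nucleolus. Box C/D snoRNAs, with a C box near the 5′ end and a D box near the 3′ end, direct ribose methylation, and box H/ACA snoRNAs, which end in an ACA, direct the conversion of uridine to pseudouridine, both mostly in ribosomal RNA. In flies most of them are cut out of introns after splicing, so their supply depends on transcription of the host, which is often a gene for a ribosomal protein or another part of the translation machinery. Some hosts, the Uhg genes, code for no protein and serve mainly as carriers of snoRNAs, while a few snoRNA genes have promoters of their own. Amos is a basic helix-loop-helix protein that acts in the formation of sensory neurons of the olfactory system.

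By symbol, 115 members were of the H/ACA class, 94 of the C/D class and 48, among them the U3 genes, were sorted into neither class. The sequences bore the names out for most: 108 of the 115 H/ACA genes had ACA within the last 8 bases, and 76 of the 94 C/D genes had TGATG in the first 20 bases and CTGA in the last 20. Of the 48 others, 16 had TGATG and CTGA at these places and 11 had the ACA, so counts by symbol can miss genes of either class. H/ACA genes had a median length of 140 bp and C/D genes of 79.0 bp. The classes were spread unevenly over the hosts. Protein-coding hosts held 103 H/ACA and 49 C/D genes, and non-coding hosts held 3 and 39. An example of each class is printed from the RefSeq Release 6 genome (dm6), with the boxes in capitals. Me18S-A1576 (chr2L:9894795-9894907, minus strand) lies in the non-coding host Uhg2 and Psi18S-525a (chr2L:20418348-20418481, plus strand) in Arpc2, which encodes a subunit of the Arp2/3 complex.
Me18S-A1576: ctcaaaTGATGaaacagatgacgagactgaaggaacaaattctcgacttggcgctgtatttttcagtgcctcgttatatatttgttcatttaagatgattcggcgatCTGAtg
Psi18S-525a: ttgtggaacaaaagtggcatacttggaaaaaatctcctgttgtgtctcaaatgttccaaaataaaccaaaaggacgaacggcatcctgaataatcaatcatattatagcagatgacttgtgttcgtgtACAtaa

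Most snoRNAs lay deep in their hosts. Introns held 163 of the 181 snoRNAs of protein-coding hosts and 51 of the 55 of non-coding hosts, and the others overlapped an exon. The median distance from a snoRNA to the nearest transcription start site (TSS) of its host was 1422 bp, and 41 of 236 lay within 600 bp of one. A summit close to a host promoter was therefore in most cases a separate position from a summit close to the snoRNA. Of the hosts, 45 held 1 snoRNA and 14 held 5 or more, and these 14 carried 129 snoRNAs.

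Peaks came as an optimal and a conservative list from pooled reads and as a list for each replicate, all after filtering by irreproducible discovery rate (IDR). A summit is the highest position of a peak, and its signal is the strength that the caller of the authors reported for it, on a scale of its own in each list. On the 6 arms the optimal list held 5823 peaks with a median signal of 120, the replicate 1 list 6213 with a median of 76.7 and the replicate 2 list 2880 with a median of 103. The lists hold no read counts, so library depth is unknown.

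Host genes had a summit at their promoter more often than genes at large, in the pooled list and in each replicate. In the optimal list, 61 of 82 hosts (74.4%) had a summit within 500 bp of one of their TSSs. The replicate 1 list had one at 63 hosts and the replicate 2 list at 42. Both replicate lists shared 42 hosts, 21 were in replicate 1 alone, none was in replicate 2 alone and 19 were in neither. Hosts with a promoter summit in the optimal list held 196 of the 236 hosted snoRNAs. A gene with several TSSs has more places for a summit. With the 5′ end of the gene alone, 52 of 82 hosts (63.4%) had one in the optimal list, among them 47 of 72 protein-coding hosts (65.3%). That share was not computed for all genes, and numbers of TSSs were not compared.

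Among protein-coding hosts, 56 of 72 (77.8%, 95% Wilson interval over genes 66.9 to 85.8) had a promoter summit in the optimal list, 58 (80.6%) in replicate 1 and 40 (55.6%) in replicate 2. The mean of the replicate shares was 68.1% ± 17.7 (SD, n = 2). Of all 13945 protein-coding genes, 37.3% had such a summit in the optimal list, 39.6% in replicate 1 and 20.6% in replicate 2. Among non-coding hosts, 5 of 10 (interval 23.7 to 76.3%) had one in the optimal list, 5 in replicate 1 and 2 in replicate 2, a mean replicate share of 35.0% ± 21.2 (SD, n = 2). Of all 2996 ncRNA genes other than snoRNAs and other short RNAs, 8.08% had one in the optimal list, 9.21% in replicate 1 and 4.04% in replicate 2. In the conservative list 43 of 72 protein-coding and 4 of 10 non-coding hosts had one, beside 23.8% and 3.77% of all genes of these classes. Each class of host lay above the share of its own class in each list, and the backgrounds include the hosts. The share was lower at non-coding than at protein-coding hosts in each list. Their intervals overlapped, and with 10 non-coding hosts this neither shows nor excludes a difference between the classes. Genes are not replicates and share peaks with neighbours, so no test was run.

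**Figure D1:**
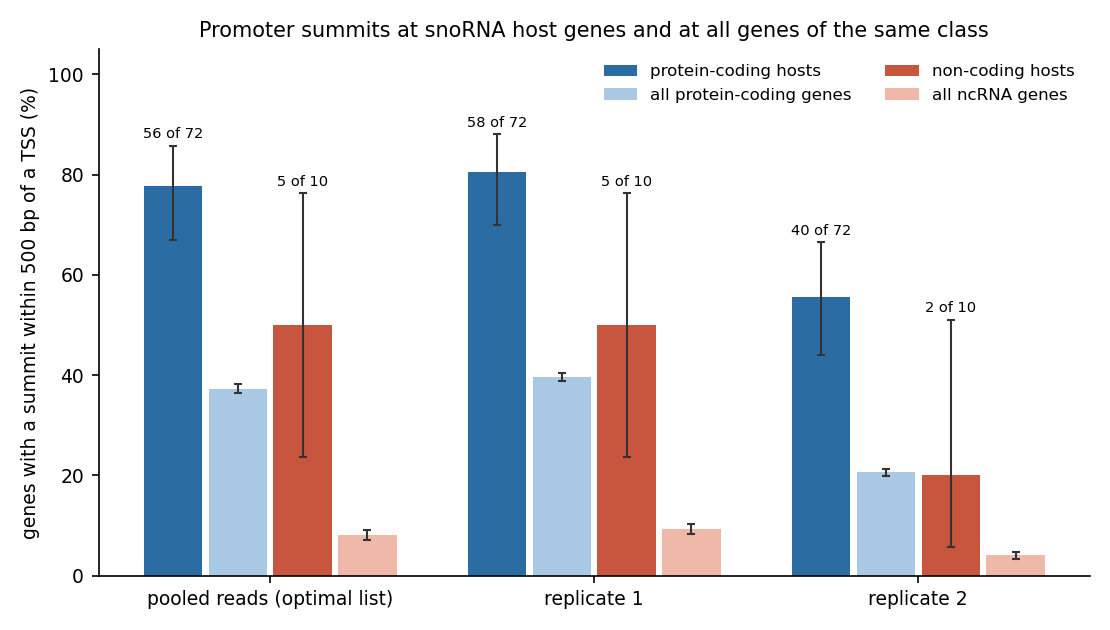
Share of genes (percent) with a summit within 500 bp of a TSS, in the optimal list and in each replicate list, for protein-coding hosts, all protein-coding genes, non-coding hosts and all ncRNA genes. Bars are shares and lines are 95% Wilson intervals over genes, and host bars stand above the bars of their class in each list, with 56 of 72 and 5 of 10 in the optimal list.

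The strongest promoter peaks of hosts were spread over genes of different roles. At hts, which encodes the membrane skeleton protein adducin, the signal was 1634 in the optimal list, 1208 in replicate 1 and 421 in replicate 2. Tudor-SN, a nuclease family protein of RNA silencing complexes, had 1536, 1026 and 513. The ribosomal protein gene RpS29 had 1509, 1044 and 469. All of them were in both replicate lists, as were the other 9 of the 12 protein-coding hosts with the highest signal. Those were kis (1250 in the optimal list), a chromatin remodeller, the ribosomal protein genes RpL36A (1137), RpS7 (959), RpL10Ab (845), RpL11 (845), RpS6 (709) and RpS12 (610), pAbp (652), which encodes the poly(A)-binding protein, and pths (619). Over the 61 hosts the signal of the strongest promoter peak reached 1634 with a median of 243, against a median of 178 over the 5208 protein-coding genes with a promoter summit and 106 over the 242 ncRNA genes with one. Of the 61 peaks, 12 were in the strongest 10% of the optimal list and 47 in its strongest 50%, beside 809 and 3303 of the 5208 protein-coding genes. In the replicate 2 list 6 and 23 of 42 hosts were, beside 344 and 1644 of 2874 protein-coding genes, and the share of hosts in the stronger 50% was not above that of all protein-coding genes there. The q value was above 0.05 at 2 of the 61 peaks.

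**Figure D2:**
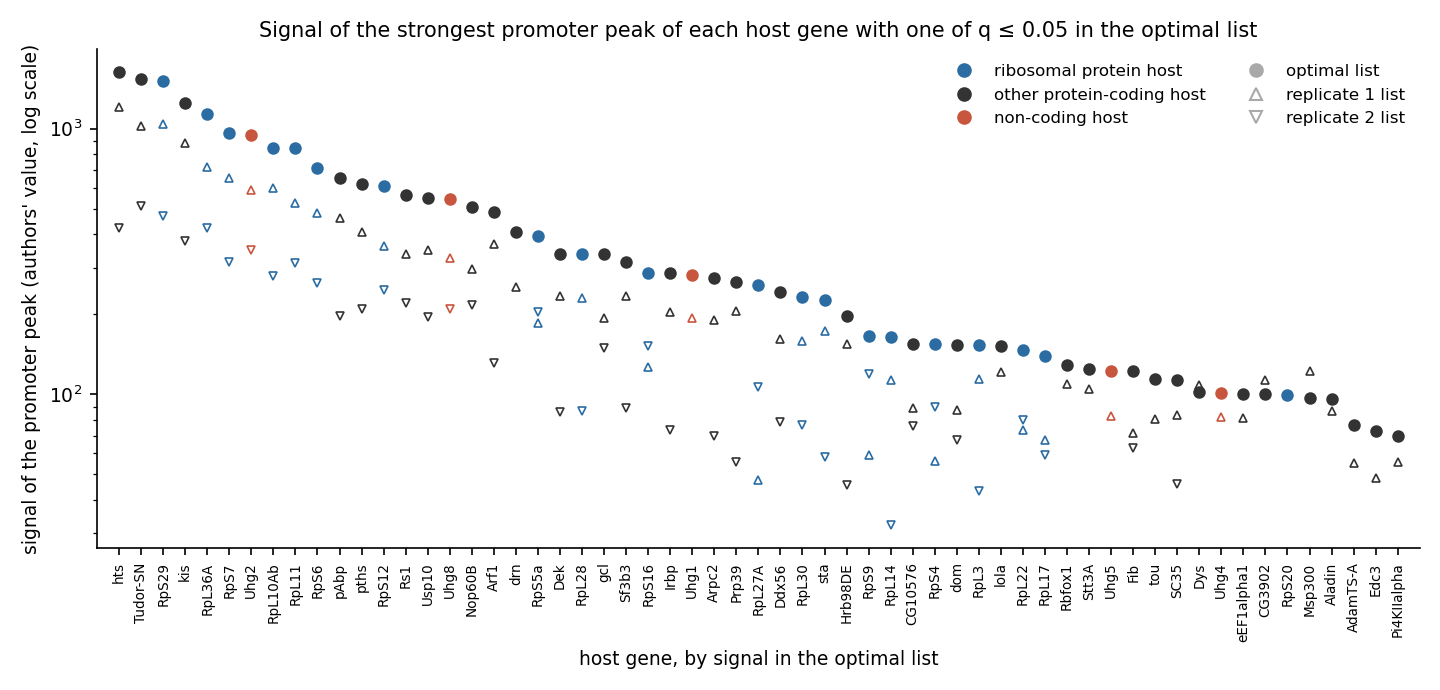
Signal of the strongest promoter peak (log scale) at each of the 59 hosts with one of q 0.05 or less in the optimal list, ordered by that signal, with the same host's values in the replicate 1 and replicate 2 lists where it has them. Ribosomal protein, other protein-coding and non-coding hosts are mixed along the order, from hts at 1634 to Pi4KIIalpha at 69.6.

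Ribosomal protein genes made up 28 of the 72 protein-coding hosts. A promoter summit was found at 21 of them in the optimal list (75.0%), 21 in replicate 1 and 19 in replicate 2. Ribosomal protein genes that host no snoRNA had one in 44 of 58 cases (75.9%), and in 45 and 33 in the replicates. The shares of 75.0% and 75.9% lay well inside each other's intervals. The other 44 protein-coding hosts had a summit in 35 cases (79.5%) in the optimal list, 37 in replicate 1 and 21 in replicate 2. Hosts outside the ribosome therefore stood above the protein-coding background as well. Their count was lower in the shorter replicate 2 list (37 to 21), as was that of all protein-coding genes (5520 to 2874). That of ribosomal protein hosts changed less (21 to 19). The median signal in the optimal list was 259 at ribosomal protein hosts, 397 at ribosomal protein genes without a snoRNA and 197 at the other protein-coding hosts.

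The non-coding hosts split into strong, weak and empty promoters. Uhg2, with 4 snoRNAs, had a signal of 945 in the optimal list, 587 in replicate 1 and 348 in replicate 2, with the summit 96 bp upstream of its TSS. Uhg8, with 3, had 545, 326 and 210, but its summit lay 385 bp upstream and nearer to the TSS of CG5199. These were the non-coding hosts in both replicate lists. Uhg1, with 16 snoRNAs, had 282 in the optimal list and 194 in replicate 1. Uhg5, with 11, had 122 and 82.8, and Uhg4, with 7, had 101 and 82.2. None of these last hosts was in the replicate 2 list. Uhg3, Uhg7, lncRNA:CR31647, lncRNA:CR42491 and lncRNA:CR45184 had no promoter summit in any of the 3 lists. Below the IDR threshold, Uhg3 had a region of signal 59.5 in replicate 1 and 14.9 in replicate 2, and lncRNA:CR45184 had 15.9 and 15.3. The empty promoters thus belonged to hosts with 1 to 5 snoRNAs. Uhg1, Uhg5 and Uhg4, the non-coding hosts with most snoRNAs, had peaks in replicate 1 and the optimal list, but Uhg1 had none in the conservative list. Both lncRNA:CR45184 and lncRNA:CR42491 lie whole inside a longer protein-coding host on the same strand, Sf3b3 and RpL22. These had promoter signals of 315 and 147 in the optimal list and a summit in each replicate list. In all, 12 snoRNAs lay inside 2 such genes and were given to the shorter.

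Among protein-coding hosts, most large snoRNA clusters also lay in genes with a promoter summit. Arpc2 held 17 snoRNAs, all of the H/ACA class, and had a signal of 273 in the optimal list, 190 in replicate 1 and 70.0 in replicate 2. The chromatin remodeller gene dom held 15 snoRNAs and had 153, 87.4 and 67.5, at a summit nearer to the TSS of CG30394. RpS5a held 14 and had 395, 185 and 205. Nop60B, the pseudouridine synthase of box H/ACA particles, held 7 and had 509, 296 and 217, at a summit 417 bp upstream that was nearer to mRpS17. Of the 14 hosts with 5 or more snoRNAs, 12 had a promoter summit in the optimal list. The exceptions were lncRNA:CR45184 and kra, a regulator of translation with 8 snoRNAs. The promoter region of kra reached 62.9 in replicate 1 and 52.5 in replicate 2 and was in no list after the threshold. Peaks of lower signal did pass, such as that of RpL7A in replicate 1 (31.6) and that of RpL14 in replicate 2 (32.2). Why the region of kra is missing was not tested.

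**Figure D3:**
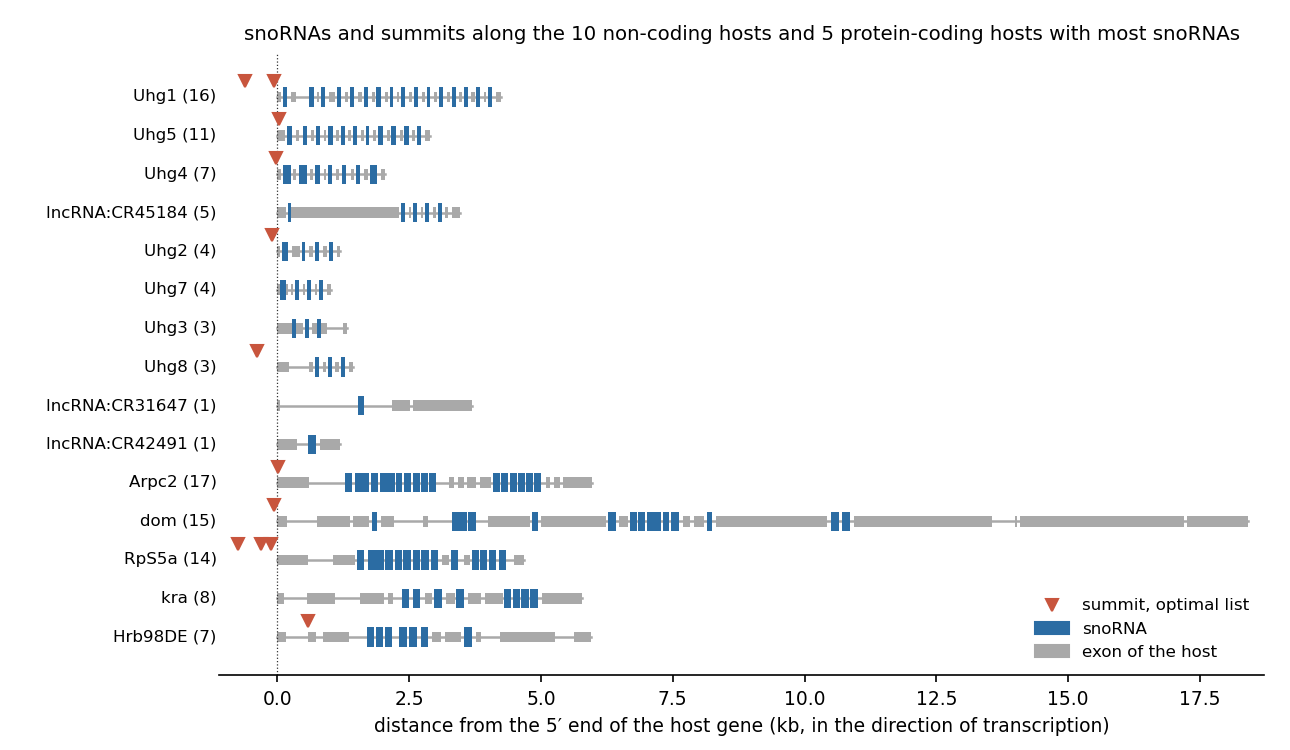
Positions of snoRNAs, exons and optimal-list summits along the 10 non-coding hosts and the 5 protein-coding hosts with most snoRNAs, as distance from the 5′ end of the host in kb, with the number of snoRNAs in brackets. Summits sit at or before the start, as at Uhg1 and Arpc2, or at a later TSS, as at Hrb98DE, while most snoRNAs lie downstream, and the rows of kra, Uhg3, Uhg7 and the 3 lncRNA genes hold no summit.

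Summits at host promoters lay in the place typical of promoters in these lists. The median position was 55.0 bp upstream of the host TSS, with 44 of 61 upstream and 46 within 100 bp. Over all protein-coding genes with a promoter summit the median was 45.0 bp upstream, with 79.9% upstream and 70.2% within 100 bp. For 50 of the 61 hosts the nearest TSS of any gene was the host's own. With a summit counted only where its nearest TSS was the host's, an alternative added after the data were seen, 52 hosts kept one, 48 of them protein-coding and 4 non-coding. Of the 236 hosted snoRNAs, 151 had as nearest summit one at a TSS of their host.

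By class of snoRNA, 95 of 106 hosted H/ACA genes, 64 of 88 hosted C/D genes and 37 of 42 hosted genes sorted into neither class lay in a host with a promoter summit. These counts share hosts, since a cluster in 1 gene counts many times. By arm, a promoter summit of the optimal list was at 17 of 20 hosts on 2R, 15 of 19 on 3L, 12 of 17 on 3R, 9 of 15 on 2L and 8 of 10 on X, and the lone host on arm 4, RpS3A, had none. The share of all genes on each arm was not computed, so these counts show no difference between arms that is particular to hosts.

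The 21 hosts without a promoter summit in the optimal list included 7 ribosomal protein genes. Those with most snoRNAs, after kra and the non-coding genes, included RpL13A and RpL15 with 2 each, and Act57B, a muscle actin gene, with 1. RpL15 had regions of signal 17.5 in replicate 1 and 17.4 in replicate 2 below the threshold and Act57B had 28.4 and 23.5. Of the 21, CG43051, RpL7A, RpS3A and Swim had a summit in the replicate 1 list, named here after their values were seen. Regions that did not need to pass the threshold lay at 79 hosts in replicate 1 and 64 in replicate 2, but 74.4% and 62.9% of all protein-coding genes had one too.

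snoRNA genes themselves rarely lay beside a summit. In the optimal list 10 of 257 (3.89%, 2.13 to 7.01) had a summit within 100 bp, and each replicate list also had 10. They were not all the same genes, and 7 were in both replicate lists. Of the 10 in the optimal list, 6 were in the replicate 1 list and 9 in the replicate 2 list. A place of the median snoRNA length, 134 bp, put anywhere on the 6 arms has a summit within 100 bp in 1.43% of positions in the optimal list, 1.52% in replicate 1 and 0.712% in replicate 2. Other short RNA genes, taking tRNA, snRNA and scaRNA genes together, had one in 65.8% of cases in the optimal list, 34.5% in replicate 1 and 64.6% in replicate 2. Most of these are tRNA genes, and the classes differed. In the optimal list the share was 72.8% of 290 tRNA genes, 37.5% of 32 snRNA genes and 0% of 17 scaRNA genes. The share of snoRNAs thus lay above that of places on the arms and of scaRNA genes, and below those of tRNA and snRNA genes, in each list.

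In the optimal and replicate 2 lists, 7 of the 10 snoRNAs with a summit had no host, and 5 of 10 in the replicate 1 list. Of the 21 without a host 7 (33.3%) had a summit in the optimal list, of the 181 in protein-coding hosts 3 (1.66%) and of the 55 in non-coding hosts 0 (0%, 0 to 6.53). None of the 94 genes sorted as C/D by symbol was among the 10 of the optimal list, while the replicate 1 list had a summit at Me28S-A1322 (signal 51.5) and Me18S-C1968 (47.5). By class the 10 of the optimal list held 4 H/ACA genes, the 3 genes of U3, a box C/D RNA that acts in the cutting of the ribosomal RNA precursor, and 3 genes named after their host. The 3 hosted genes were CG31191-a, Dek-a and gcl-a, all in introns, with summits 32581, 688 and 622 bp from the nearest TSS of the host.

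The strongest of these peaks stood at H/ACA genes without a host, in both replicates. Psi18S-176 had a signal of 434 in the optimal list, 134 in replicate 1 and 300 in replicate 2. Or-aca4 had 413, 123 and 290, and Psi28S-3342 had 381, 127 and 204. By signal, Psi18S-176 ranked 348, Or-aca4 374 and Psi28S-3342 691 among the 2880 peaks of the replicate 2 list, and 1883, 2035 and 1981 among the 6213 of the replicate 1 list. CG31191-a had 238 in the optimal list, 58.8 in replicate 1, where it ranked 3958, and 177 in replicate 2, where it ranked 829. Ranks in lists of different length cannot by themselves show a change between replicates. Dek-a had 112 in the optimal list, 64.8 and 49.7, and gcl-a had 84.5, 46.6 and 36.7. Psi18S-301, at 93.0, was in neither replicate list. Its peak is the one among the 10 that rests on pooled reads alone.

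Where the summit lay relative to the gene separated the U3 genes from the rest. At all 7 other genes it was upstream of the snoRNA's own start, by 25 to 83 bp. At U3:54Aa it lay 207 bp after the start and at U3:9B 97 bp after it, inside the gene, and at U3:54Ab 297 bp after the start, past the end. The signal at U3:54Aa was 111 in the optimal list and 68.0 in replicate 2, at U3:9B 70.2 and 42.3, and at U3:54Ab 68.1 and 87.4. None of them had a summit within 100 bp in the replicate 1 list. U3:54Aa and U3:54Ab have the same sequence, so reads inside one cannot be told from reads inside the other, and their summits lay 442 and 533 bp from tRNA genes. At the other 7 the nearest tRNA gene was at least 11853 bp from the summit.

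**Figure D4:**
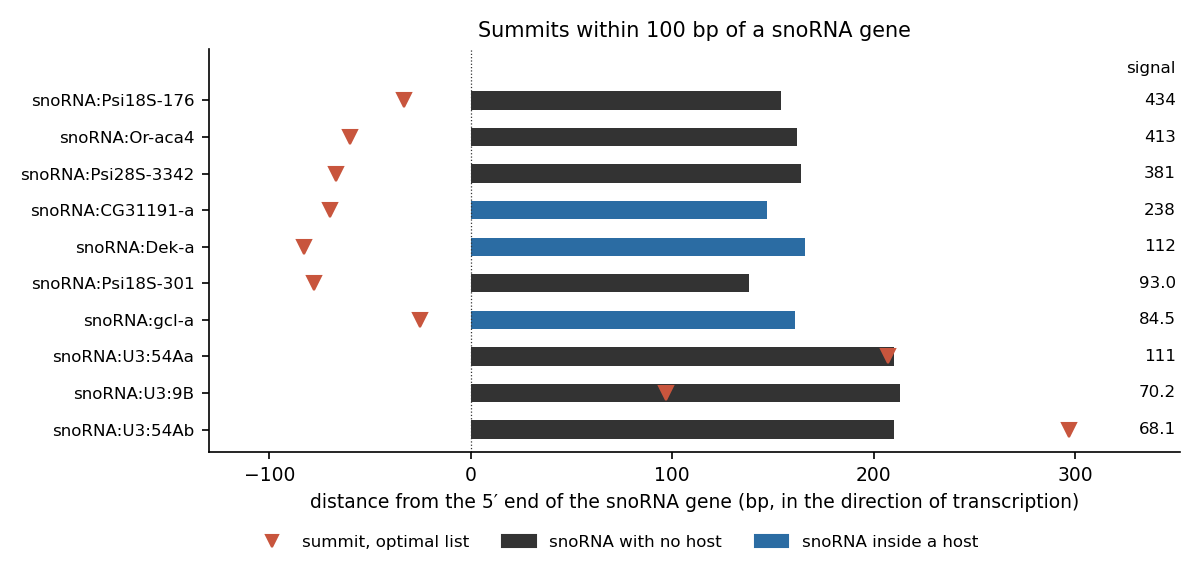
Position of the optimal-list summit (triangle) relative to the 5′ end of each of the 10 snoRNA genes with a summit within 100 bp (bar, drawn to length in bp), with the signal of the peak at the right. Summits of the 7 upper genes lie 25 to 83 bp before the start, and those of the 3 U3 genes lie within or after the gene.

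The sequence before these genes was then read for GGTTCGA, letters found in the internal promoter element (the B box) of tRNA genes. This search was chosen after the sequences had been seen, so its counts are a description with no test. From 150 bp before the start to the end of the snoRNA, on the sense strand, 3 of the 7 genes had a match (Dek-a, CG31191-a and Psi28S-3342). Of the 239 snoRNAs with no optimal-list summit within 250 bp 2 had one (0.837%), among them Me18S-C1968, which had a replicate 1 summit within 100 bp. So did 145 of 290 tRNA genes in the gene itself, and 1.23% of protein-coding genes in a window of 150 bp before the 5′ end and 134 bp after it. Psi28S-2622, another H/ACA gene without a host, had a match too. It missed the distance with a summit 129 bp away and a signal of 177 in the optimal list, and its summits in the replicate lists (3.67 in replicate 1, 79.3 in replicate 2) lay within 100 bp. Shown are 120 bases before the snoRNA and its first 20 bases for CG31191-a (chr3R:20912860-20912999, minus strand), Psi28S-3342 (chrX:5524446-5524585, minus strand), Psi28S-2622 (chr3L:1488786-1488925, plus strand) and, with no match, Psi18S-301 (chr3R:20574786-20574925, plus strand), all from RefSeq Release 6, with GGTTCGA in capitals.
CG31191-a: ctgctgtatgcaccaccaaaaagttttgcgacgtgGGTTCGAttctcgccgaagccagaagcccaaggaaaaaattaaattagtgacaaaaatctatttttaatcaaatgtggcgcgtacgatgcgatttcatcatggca
Psi28S-3342: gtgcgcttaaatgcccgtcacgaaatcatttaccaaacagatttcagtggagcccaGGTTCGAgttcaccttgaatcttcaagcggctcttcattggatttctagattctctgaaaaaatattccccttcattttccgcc
Psi28S-2622: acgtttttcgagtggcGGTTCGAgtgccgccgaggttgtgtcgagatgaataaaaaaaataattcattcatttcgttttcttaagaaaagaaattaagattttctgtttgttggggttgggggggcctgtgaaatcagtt
Psi18S-301: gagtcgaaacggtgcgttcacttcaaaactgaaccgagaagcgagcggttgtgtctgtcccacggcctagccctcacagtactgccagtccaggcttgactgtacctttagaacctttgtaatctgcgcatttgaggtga

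Promoter summits of hosts were read for 4 sequence motifs, beside all promoter summits of the list. Within 50 bp of the summit, on either strand, CGATAG, which the insulator factor BEAF-32 recognises, was in 23 of 61 host windows (37.7%, 26.6 to 50.3), against 31.4% of all 4352 promoter summits. TATCGATA, the element of the transcription factor DREF, which can overlap CGATAG, was in 11 (18.0%, 10.4 to 29.5) against 17.0%. GGTCACACT, the core promoter motif of M1BP, was in 3 (4.92%) against 4.64%. The E-box CANNTG, which can hold the binding sites of basic helix-loop-helix proteins, was in 20 (32.8%, 22.3 to 45.3) against 39.3%. Each general share lay inside the interval of the hosts. Host windows held CGATAG in 34.9% of cases in replicate 1 and 45.2% in replicate 2, beside 29.0% and 45.6% of all promoter summits, and CANNTG in 30.2% and 35.7%, beside 38.8% and 36.5%.

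Both CGATAG and TATCGATA went with signal among hosts, as they did over all promoter summits. In the strongest 10% of the optimal list, CGATAG was in 8 of 12 host windows and 71.3% of all, and TATCGATA in 7 and 35.1%. In the rest of the stronger 50%, CGATAG was in 14 of 35 host windows and 42.4% of all, and TATCGATA in 4 and 24.4%. In the weaker 50%, CGATAG was in 1 of 14 and 9.26%, and TATCGATA in 0 and 4.55%. Around the 5′ end of the gene, 50 bp to each side, CGATAG was in 18 of 61 hosts with a promoter summit (29.5%), 1 of 21 hosts without (4.76%) and 11.3% of all protein-coding genes. Among non-coding hosts, CGATAG was within 50 bp of the optimal-list summit at 2 of 5, and Uhg8, Uhg5 and Uhg4 had neither motif there. Of the 12 strongest protein-coding hosts, kis and pAbp had neither. The promoters below are examples and do not stand for all hosts. They are those of the non-coding hosts Uhg2, with a summit, and Uhg3, without, each with 100 bases before the TSS and 20 after it. The others are 4 of the 12 strongest protein-coding hosts, chosen as examples that hold TATCGATA, each with the 100 bases before its TSS. All of these sequences come from RefSeq Release 6, with CGATAG and TATCGATA of either strand in capitals (CTATCG is CGATAG on the other strand). The positions are chr2L:9894984-9895103, minus strand, for Uhg2, chr2L:20647433-20647552, plus strand, for Uhg3, chr3L:11822751-11822850, plus strand, for RpL10Ab, chrX:7901332-7901431, minus strand, for RpS6, chr2L:21143129-21143228, plus strand, for pths, and chr3L:13023252-13023351, plus strand, for RpS12.
Uhg2: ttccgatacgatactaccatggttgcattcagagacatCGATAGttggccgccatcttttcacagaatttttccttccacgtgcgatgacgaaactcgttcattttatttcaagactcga
Uhg3: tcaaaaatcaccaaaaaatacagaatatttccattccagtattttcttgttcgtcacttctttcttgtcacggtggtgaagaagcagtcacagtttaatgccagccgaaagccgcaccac
RpL10Ab: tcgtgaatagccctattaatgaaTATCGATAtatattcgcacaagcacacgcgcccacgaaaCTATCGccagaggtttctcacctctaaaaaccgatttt
RpS6: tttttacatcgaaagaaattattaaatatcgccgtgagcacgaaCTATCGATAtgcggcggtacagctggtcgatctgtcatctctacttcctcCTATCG
pths: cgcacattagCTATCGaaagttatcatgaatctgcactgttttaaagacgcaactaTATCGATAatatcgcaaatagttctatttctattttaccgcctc
RpS12: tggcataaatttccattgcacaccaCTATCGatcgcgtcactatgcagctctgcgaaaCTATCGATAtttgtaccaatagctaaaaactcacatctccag

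A pyrimidine initiator (TCTTTCT or TCTTTTT, or either with C as the first letter, within 20 bp of a TSS on the sense strand), typical of genes for the translation machinery, divided the hosts by class and not by peak. It was at 13 of 28 ribosomal protein hosts (46.4%), 2 of 44 other protein-coding hosts (4.55%) and 1 of 10 non-coding hosts, against 2.14% of all protein-coding genes. Ribosomal protein genes without a snoRNA had it in 30 of 58 cases (51.7%). Hosts with a promoter summit had it in 12 of 61 cases (19.7%) and hosts without in 4 of 21 (19.0%).

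The proteins that join snoRNAs in their particles were looked up as a list of 11 genes, of which Fib, nop5 and Nop60B are hosts themselves. A promoter summit was found at 8 of them in the optimal list, the same number in replicate 1, and 2 in replicate 2. Of the box C/D proteins, Fib, the methyltransferase, had a signal of 122 in the optimal list, 71.5 in replicate 1 and 62.8 in replicate 2. Nop56, a core protein, had 55.0 in the optimal list and 47.3 in replicate 1, at a summit 55 bp upstream of its TSS but nearer to that of mats, and hoip 158 and 137 at a summit nearer to Pka-C1. Neither was in the replicate 2 list. The core protein gene nop5 had no summit in the optimal list. Of the box H/ACA proteins, Nop60B had the strongest peak within 500 bp, at 509, at the summit nearer to mRpS17, while the summit closest to the TSS of Nop60B, 109 bp away, had 197. It was followed by Gar1 (156), Nop10 (97.5, nearer to mms4) and NHP2 (60.1). Nopp140, a chaperone of these particles, had 83.4, and the assembly factors pont and rept had no promoter summit in the optimal list. Fib and Nop60B were the members of the list with a summit within 500 bp in both replicate lists. The share of 8 of 11 stands beside 37.3% of all protein-coding genes in the optimal list. In replicate 2 the share of 2 of 11 (18.2%) was not above the 20.6% of all protein-coding genes.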

How the data were processed

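ChIP-seq peak lists of amos-eGFP from 2 biological replicates were used as deposited. The notes deposited with the samples state that the lists are on dm6 and passed IDR, for either replicate and for both together. Which aligner and caller were used, and in what version, is not given in the sources used here. Signal is the authors' deposited value for the strength of a peak and was used within a list only. The deposited q value is given as −log10. The optimal list was the main list, and the lists before the IDR threshold of each replicate were read for regions at host promoters. In those ranked lists 20 columns of per-input values were not used. The lists used hold no read counts, so depth is unknown and intervals (Wilson, 95%) over genes describe the lists and not the spread between embryos.

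Genes came from Ensembl release 115 and sequence from RefSeq, both Release 6. Of 18164 genes on the 6 arms, 257 were members. The host was the shortest gene on the same strand that holds the whole snoRNA and is not itself a short RNA gene. A host was called where a summit lay within 500 bp of any of its TSSs, a snoRNA where one lay within 100 bp. Scripts ran in Python 3.11.15 with SciPy 1.17.1 and matplotlib 3.10.9, and their distance rules were tested on simulated peaks. The members, lists, motifs and tests were chosen with earlier results of these data known. Named genes are all non-coding hosts, the 12 protein-coding hosts with the highest signal, up to 8 hosts without a summit, the snoRNAs with a summit that have no host or lie over 500 bp from its TSSs, and the snoRNP list, and some of these are not reported here. Hosts of large clusters were added after their values were seen. Alternatives were other lists, distances, TSS and host rules, a q value of 0.05 or less and signal above the median.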

Additional observations from a re-analysis of the deposited data

Results flagged for a closer look

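The promoter of RpL13A, a ribosomal protein gene that holds 2 snoRNAs, stood out in data outside the main measurement. In the replicate 1 list before the IDR threshold it had a region (chr3R:5624034-5624505, dm6) of signal 653, rank 266, and in that of replicate 2 one (chr3R:5624080-5624293) of signal 263, rank 498. Of the 6213 peaks that passed the threshold in replicate 1, 5960 had a lower signal, and of the 2880 in replicate 2, 2406 had. No list after the threshold held a summit within 500 bp of a TSS of RpL13A. The same held for kra, on the same arm, with regions of signal 62.9 (rank 3871) in replicate 1 and 52.5 (rank 2443) in replicate 2 before the threshold. The notes deposited with the samples name a further input file for the thresholded lists that the ranked lists do not have, and what it did at these regions was not tested.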

How the results depend on the processing

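With 1 group and no contrast, nothing was tested, and values below are counts or shares under each alternative. Leaving out a replicate by reading the other's list alone gave 42 to 63 hosts with a promoter summit, 40 to 58 protein-coding and 2 to 5 non-coding hosts, and 2 to 8 genes of the snoRNP list. Each list alone gave 10 snoRNAs within 100 bp, 7 of them the same genes, and 5 to 7 of the 10 had no host. The non-coding count of 2 and the snoRNP count of 2 are those without replicate 1, and the cause was not tested. Motif shares at host summits ran from 34.9 to 45.2% (CGATAG), 17.5 to 23.8% (TATCGATA), 4.76 to 6.35% (GGTCACACT) and 30.2 to 35.7% (CANNTG). The count of 10 snoRNAs became 8 in the conservative list and 4 with peaks above the median signal. It became 18 with any base of the peak, 2 at a distance of 0 bp, 18 at 250 bp and 26 at 500 bp. The count of 7 without a host became 3 above the median signal and 2 at 0 bp. CANNTG rose from 32.8 to 55.7% of host windows of 100 bp to each side. Smaller or larger windows and fewer peaks are what these alternatives are made of. Of 66 recomputed values 56 moved by less than 1.5 times. No paired analysis was possible because both replicates belong to 1 group. Unknown depth limits every missing peak: a host without a summit is not shown to be unbound.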

Other observations

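Small Cajal body RNAs (scaRNAs), relatives of snoRNAs that guide changes of the spliceosomal RNAs, were read in the same way. None of the 17 scaRNA genes had a summit within 100 bp in the optimal list. Of their 15 hosts, all protein-coding, 12 had a promoter summit in the optimal list, 12 in replicate 1 and 7 in replicate 2, beside 37.3%, 39.6% and 20.6% of all protein-coding genes. CG2926 had a signal of 786 in the optimal list, 565 in replicate 1 and 218 in replicate 2. The DEAD-box helicase gene pit had 502, 405 and 103, and lds, which encodes a helicase family ATPase, had 456, 182 and 274. Prp8, a core protein of the spliceosome, had 168 in the optimal list and 153 in replicate 1. Stt3A was the scaRNA host that also holds snoRNAs. These genes were read after the other values were known.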
